A study of Drosophila melanogaster with 20 samples.

Results

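The comparison described here is the natural ageing of the wild-type Drosophila melanogaster brain between 3 d and 20 d of adult life. It was chosen by sample title and age and not by any measured value, though earlier results of these data were known. It rests on 10 of the 20 arrays of the series, 5 from each age. All flies were grown at the same temperature on cornmeal molasses agar with dry yeast. The wild-type stock is the line labelled 5905, and the other 10 arrays hold flies of the line 0110, null for the microRNA miR-34, at 3 d and at 20 d, which share an estimate of the spread here and are otherwise used only in the last comparison. Total RNA of dissected brains was extracted with Trizol and hybridised, 1 biotin-labelled sample per array, to Affymetrix Drosophila 2 arrays. The labels give neither the sex of the flies nor the number of brains behind a sample. They do not say that the 5 samples of a group came from separate flies, so each p-value is set against the spread of these samples, part or all of which may be technical.

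The adult fly brain holds neurons, several kinds of glia and the sheath that forms the blood-brain barrier, with fat body, haemocytes and the eye close by in the head. In the days after eclosion the cuticle and the eye's lens are finished and the young fly's reserves are used up. Ageing in flies is known for a rise of innate immune genes and a fall of nuclear genes for mitochondrial respiration. In a bulk sample, fewer cells of a type and less RNA per cell cannot be told apart.

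Values are signals in the arbitrary units of the deposited table, and changes are differences of log2(signal + 16), 20 d minus 3 d, given with their standard errors from the fit, with 5 arrays per age. The added 16 keeps dim probe sets from dominating and understates their change. Called higher or lower means an adjusted p under 0.05 in limma with Benjamini-Hochberg adjustment over all 9806 probe sets tested. Groups are said not to overlap where all 5 arrays of an age lie beyond all 5 of the other. Each gene stands for its brightest tested probe set. The median signal of an array was 19.4 ± 1.01 at 3 d (mean ± SD, n = 5) and 23.4 ± 0.607 at 20 d, and a probe set below it is close to background. Arrays of the same age correlated at r from 0.994 to 0.997, and arrays of different ages from 0.963 to 0.966, across the probe sets tested.

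The dissection was checked against marker genes. The neuronal markers elav, nSyb and brp and the glial markers repo, nrv2 and moody were present on every array. Of the 7 photoreceptor markers, chp and trp were measured, and the 5 opsins among them were not analysed here. The 2 measured summed to between 1001 and 1171 at 3 d and between 1052 and 1159 at 20 d. Photoreceptor RNA was thus plentiful in the samples at both ages, and its part in the results below was not tested. The opsin gene Rh7, which was not among the markers, changed by -0.21 ± 0.07 (adjusted p = 0.013). The summed signal of the haemocyte markers ranged from 778.6 to 860.1 at 3 d and from 875 to 962.8 at 20 d. That of the fat body markers ranged from 2534 to 2709 and from 3297 to 3476, and that of the oenocyte markers from 1302 to 1365 and from 2814 to 3073. The oenocyte rise lies mostly in Cyp4g1, with means of 67.6 at 3 d and 1600 at 20 d, while Desat1 went from 1238 to 1335. The antennal markers went the other way, from 134.6 to 151 at 3 d and from 31.5 to 39.55 at 20 d. The female-biased yolk protein genes Yp1, Yp2 and Yp3, fixed as the measured markers of sex and also counted as fat body markers, summed to between 57.54 and 93 at 3 d and between 107.4 and 131.5 at 20 d, with no overlap. Markers of tissues outside the brain and of sex thus moved with age, and their part in the results below was not tested. The gut markers summed to no more than 42.79 on any wild-type array.

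Much of the measured transcriptome differed between the ages. Of 9806 probe sets, 3013 (30.7%) were higher and 2436 (24.8%) lower at 20 d. Over 7704 genes the counts were 2514 (32.6%) higher and 1990 (25.8%) lower, and the median change was 0.02. The 5 arrays of each age did not overlap for 26.4% of genes in the direction of a rise and for 20.4% in that of a fall. Large changes were mostly rises: 294 genes rose at least 2-fold and 25 fell at least 2-fold, and 41 rose and 5 fell at least 4-fold. The split of calls depends on the scaling: of the calls among probe sets, 55.3% were higher with the deposited values, 34.4% after median centring (2033 higher, 3878 lower) and 40.6% after quantile normalization (2212 higher, 3230 lower). Centring shifted the median over all probe sets by -0.10 and quantile normalization by -0.07.

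Bright and dim probe sets moved apart with age. Among 520 genes with a mean wild-type signal of 1000 or more the median change was -0.17 and 64.2% were called lower, while among 1143 genes under 50 it was 0.14 and 45.1% were called higher. After quantile normalization, which gives every array the same distribution of signals, those medians were -0.04 and -0.04. The level of a family's probe sets is therefore given for some families, and counts of falls in other bright families carry the same limit. The cause of this pattern was not tested. The plot of changes by brightness sets families against other genes of like signal.

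**Figure D1:**
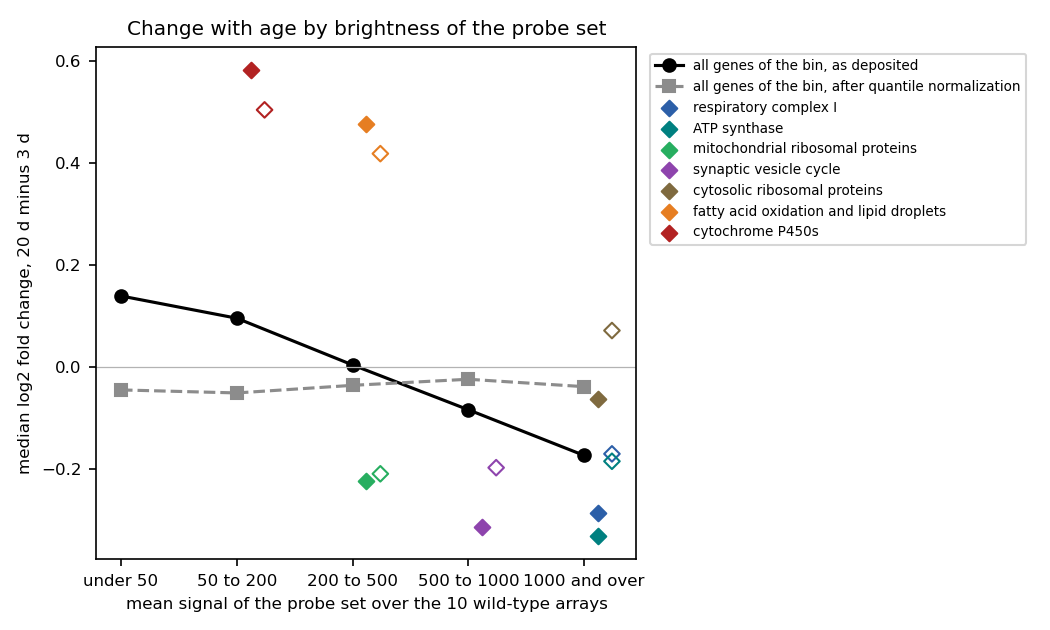
Median log2 fold change (20 d minus 3 d) of all genes in 5 bins of mean wild-type signal, as deposited (black circles) and after quantile normalization (grey squares), with the medians of 7 gene families drawn at the bin of their median member as deposited (filled diamonds) and after quantile normalization (open diamonds). The black line falls from 0.14 to -0.17 across the bins, the mitochondrial ribosomal proteins lie at -0.22 in a bin whose genes lie near 0, and the cytosolic ribosomal proteins move from -0.06 to 0.07 with the scaling.

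The families below are described by the number of measured members called in each direction, to be read against the 32.6% and 25.8% of all genes. Genes that complete a small count, or that pair with a named gene, were chosen after their values were seen.

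**Figure D2:**
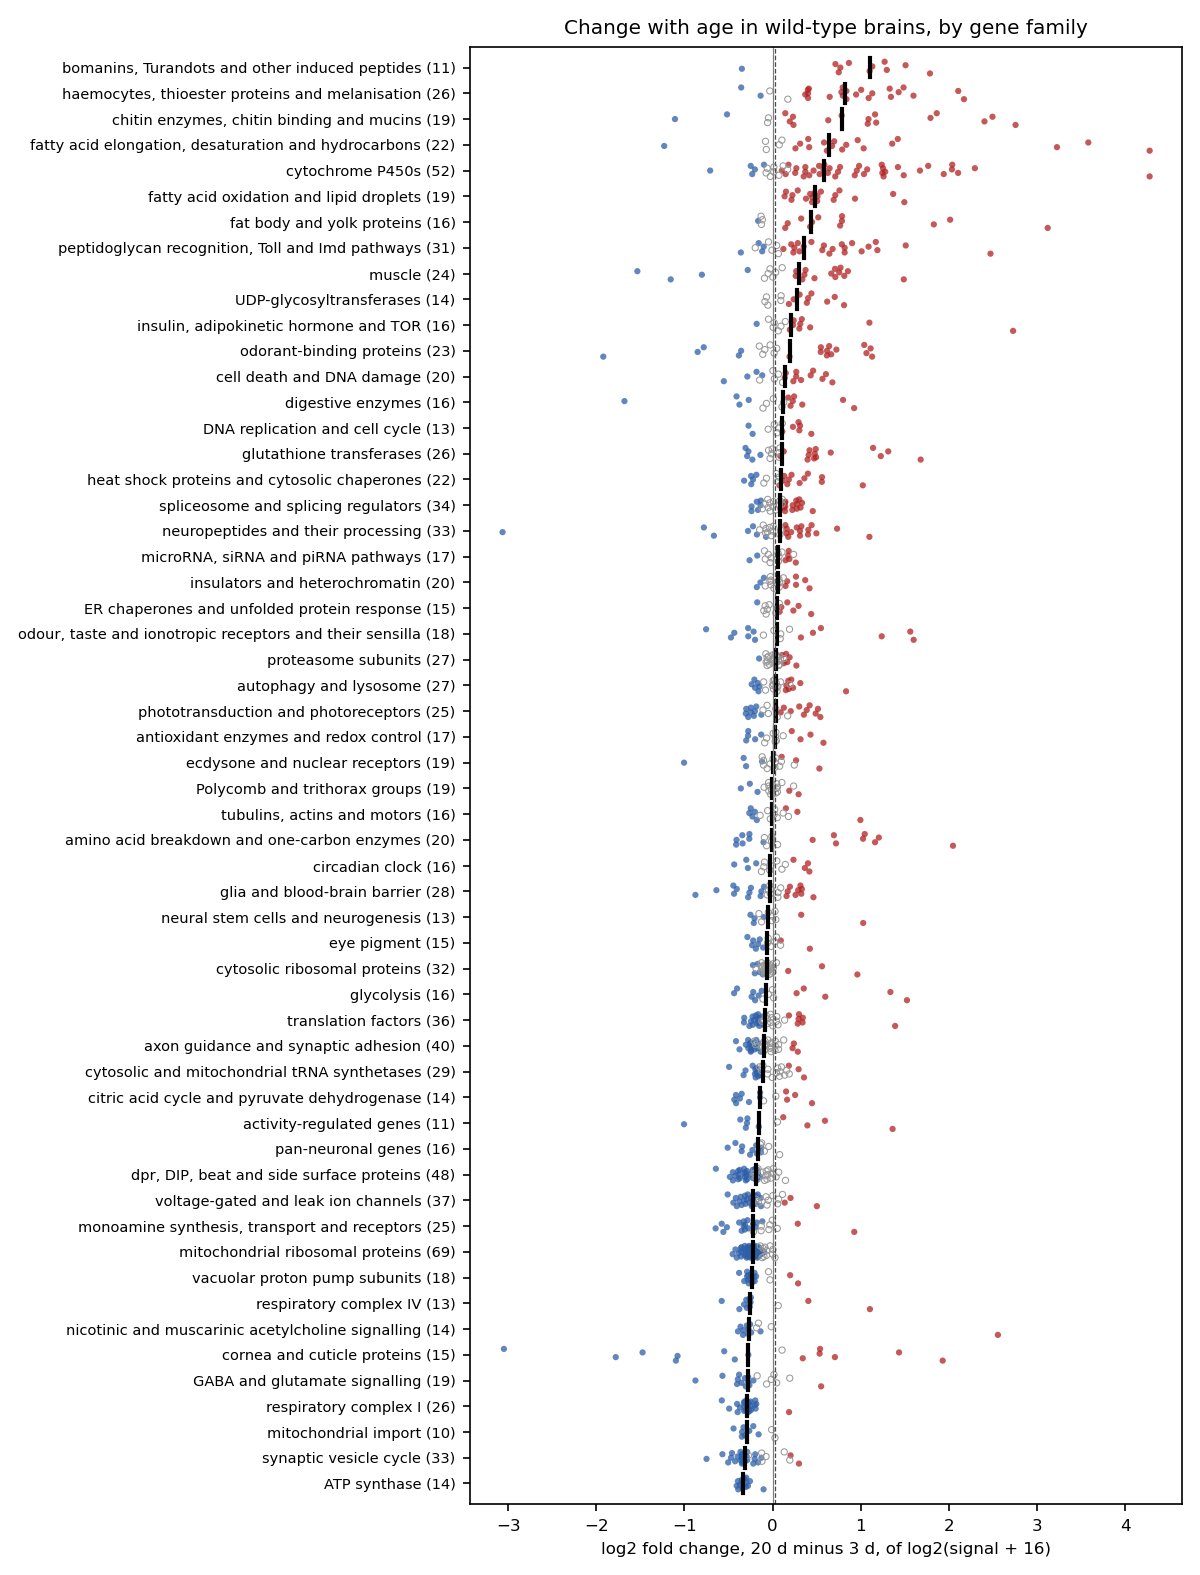
Log2 fold change with age of each measured member of the gene families with 10 or more measured members (number in brackets), sorted by median. Red points were called higher, blue points called lower and open points not called, the black bars are medians, the grey line is at 0 and the dashed line is the median of all genes at 0.02. Immune, chitin, P450 and lipid families lie at the top, and ATP synthase, the synaptic vesicle cycle, mitochondrial import and complex I at the bottom.

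The 15 genes with the largest rises joined enzymes of surface lipids and chitin, antimicrobial peptides, a receptor subunit and a hormone. Cyp4g1, which encodes the P450 that makes cuticular hydrocarbons from long aldehydes, had signals of 59.6, 79.7, 74.4, 64.4 and 59.8 at 3 d and 1679, 1577, 1522, 1618 and 1606 at 20 d. Every 20 d array lay far above every 3 d array, a change of 4.28 ± 0.082 (adjusted p = 7.6e-22). CG15531, a fatty acid desaturase gene, had signals of 1.72, 1.5, 0.23, 1.58 and 0.55 at 3 d and 161, 206, 204, 197 and 180.5 at 20 d. It was near the lowest signals of the array at 3 d, so its change of 3.58 ± 0.059 depends on the added 16. CG16904, a fatty acid elongase gene, changed by 3.23 ± 0.06, from a mean signal of 5.61 ± 1.35 to 186 ± 7.9 (SD, n = 5).

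The hormone gene Lst encodes limostatin, which lowers insulin release when food is short. Its signals were 49.9, 64.8, 56.2, 49.5 and 58.5 at 3 d and 460.3, 492, 438, 504 and 406 at 20 d, a change of 2.73 ± 0.085. nAChRbeta3, a subunit of nicotinic acetylcholine receptors, had signals of 41.4, 42.1, 43.4, 41.5 and 39.1 at 3 d and 332, 313, 339, 312 and 317 at 20 d, and changed by 2.56 ± 0.053 (adjusted p = 1.9e-21). The other large rises were those of CG7910 (3.48), Sgp (3.12), the chitinase gene Cht4 (2.76), CG4408 (2.72), CG5506 (2.56), CG11672 (2.54), yellow-d of the yellow family (2.54) and the chitin deacetylase gene Cda9 (2.50), with the antimicrobial peptide genes described below. Over all genes tested, 115 were above the array median on every 20 d and no 3 d wild-type array, so for them a rise is a rise out of background, and 57 were above it on every 3 d and no 20 d array. Of the 294 genes at least 2-fold higher at 20 d, 68 were above the array median on no 3 d array, and of the 25 at least 2-fold lower, 12 were above it on no 20 d array.

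Falls were fewer and included genes of the lens, the cuticle and flight muscle. Nplp3, a neuropeptide-like precursor gene, had signals of 618, 558, 623, 628 and 617 at 3 d and 60.9, 59.5, 63.1, 53.7 and 56.3 at 20 d, a change of -3.06 ± 0.05 (adjusted p = 2.4e-23). retinin, which encodes a protein of the corneal lens, had signals of 415, 399.7, 423, 475 and 419 at 3 d and 40.1, 35.3, 40.2, 36.6 and 34.9 at 20 d, a change of -3.05 ± 0.048. In both genes the ages were separated by a wide gap. CG7203 fell most, from 406 ± 11.5 to 21.8 ± 1.51 (SD, n = 5), with a change of -3.48 ± 0.058, and CG7214, with a similar symbol, changed by -2.78. The 25 genes that fell at least 2-fold also included CG4000 (-2.71), the antennal odorant-binding protein gene Obp83b (-1.92), the cuticle protein genes Cpr62Bb (-1.78), Cpr49Ag (-1.48) and Cpr100A (-1.10), the protease gene Jon65Aiii (-1.68), CG10725 (-1.65), CG13360 (-1.58), Dgat2 of triglyceride synthesis (-1.36), CG16820 (-1.30), CG13067 (-1.24) and the collagen gene Col4a1 of basement membranes (-1.06, from 1024 to 483).

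**Figure D3:**
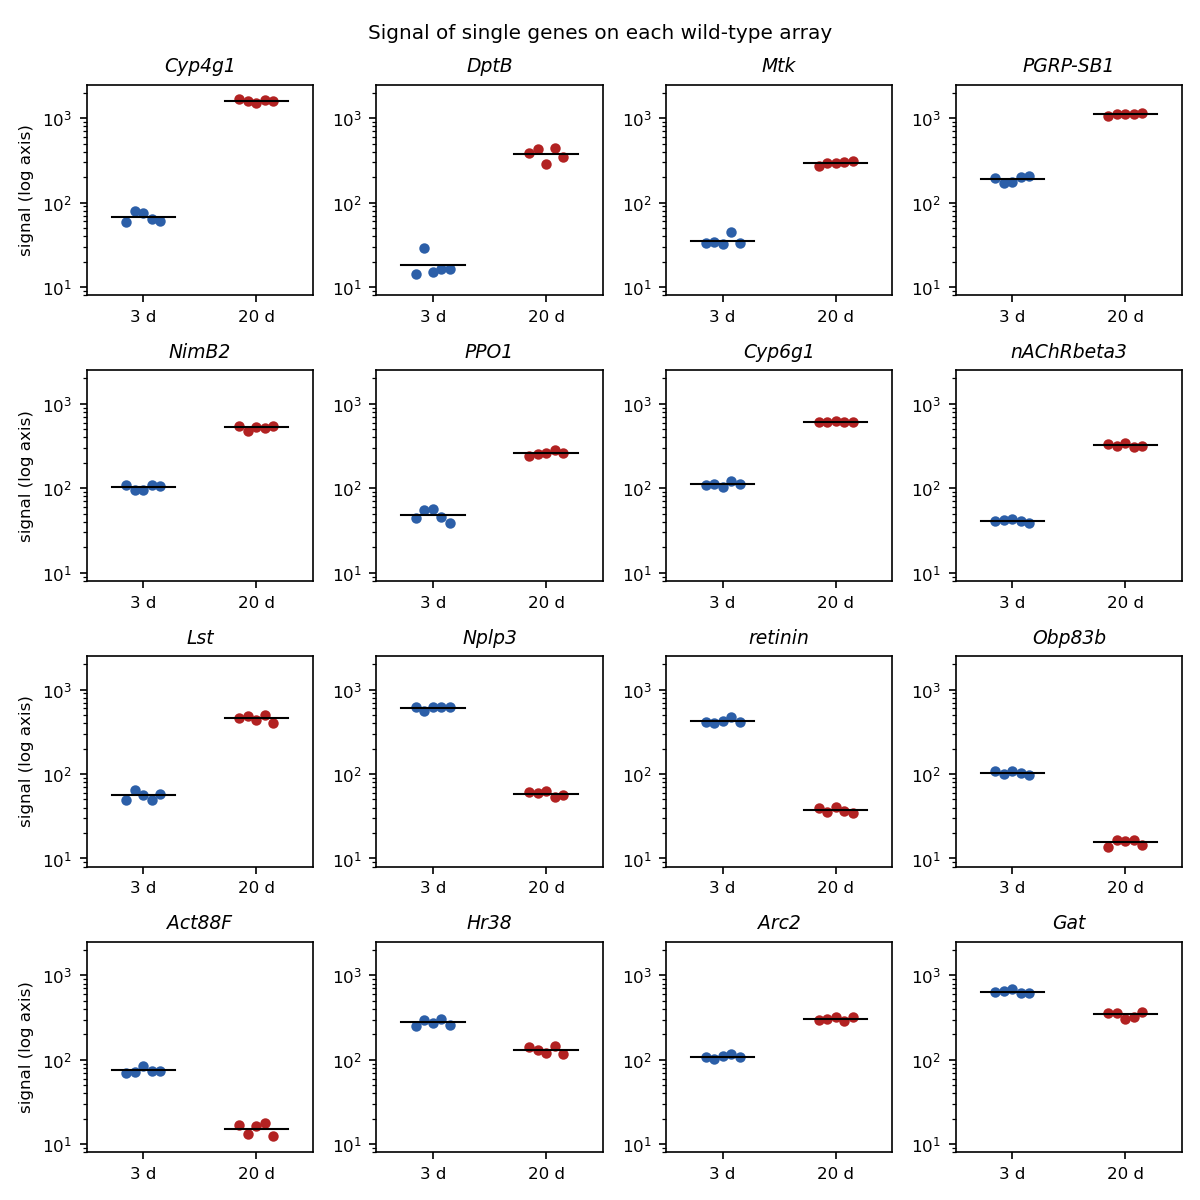
Signal of 16 genes on each of the 10 wild-type arrays (points, log axis) with the mean of each age (bars), 3 d in blue and 20 d in red. The ages do not overlap in any of the 16, and the gap is widest for Cyp4g1, with means of 67.6 to 1600.5.

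Innate immune genes were higher at 20 d across effectors, recognition proteins and blood cell genes. Antimicrobial peptides are secreted under the Toll and Imd pathways and kill bacteria and fungi. Of 20 listed, 7 were measured: 5 rose and 2 fell. DptB, a diptericin gene, had signals of 14.2, 28.8, 15.2, 16.3 and 16.4 at 3 d and 389, 433, 285, 442 and 343 at 20 d. Its 3 d level was near background, and the change was 3.53 ± 0.15 (adjusted p = 5.6e-14). Mtk, the metchnikowin gene, had signals of 33.4, 34.3, 32.0, 44.6 and 33.2 at 3 d and 271, 293, 294, 300.2 and 312 at 20 d, a change of 2.59 ± 0.054. CecB (1.08), Def (0.49) and Drs (0.28) also rose, while the drosomycin-like genes Drsl4 (-0.88) and Drsl5 (-0.22) fell.

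The bomanins, small peptides induced through Toll, moved with them. In a list of bomanins, Turandots and other induced peptides, 10 of 11 measured genes rose, with a median change of 1.10, and TotC, a Turandot gene, fell (-0.35). BomS6 went from 159 ± 16.2 to 481 ± 28.3 (SD, n = 5), a change of 1.51 ± 0.057. Listericin rose by 1.79 from background, BomT2 by 1.30, BomBc2 by 1.27 and IM33 by 1.13.

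Upstream of these effectors, 22 of 31 recognition and pathway genes rose and 4 fell, with a median of 0.35. PGRP-SB1, a secreted peptidoglycan recognition protein that cleaves peptidoglycan, had signals of 197, 169.7, 173, 201 and 203 at 3 d and 1073, 1125, 1127, 1122 and 1150.5 at 20 d, a change of 2.47 ± 0.059. GNBP3, the sensor of fungal glucans, rose by 1.51. Genes that hold the Imd pathway back rose as well, among them PGRP-LF (1.19) and pirk (1.17). The 4 that fell were the transcription factor gene Dif (-0.36), Diap2 (-0.16), the inhibitor gene cact (-0.12, but 0.13 as the mean of its probe sets) and PGRP-LE (-0.10). Of the JAK-STAT genes only 3 were measured, and Ptp61F, a phosphatase that dampens the pathway, was the 1 called higher (0.23).

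Genes of haemocytes and of melanisation rose in 22 of 26 cases with a median of 0.82. NimB2, of the nimrod family that binds bacteria, had signals of 110.4, 96.5, 96.5, 111 and 107 at 3 d and 549, 482, 537, 514 and 545 at 20 d, a change of 2.17 ± 0.047. PPO1, the prophenoloxidase that makes melanin in crystal cells, had signals of 45.1, 55.8, 56.1, 46.1 and 38.9 at 3 d and 241, 254, 262, 281 and 264 at 20 d, a change of 2.11 ± 0.083. The scavenger receptor gene Sr-CI (1.60), the thioester protein gene Tep4 (1.49) and the phagocytosis receptor gene NimC1 (1.43) followed. The engulfment receptor gene drpr (-0.14) and Pxn (-0.36), the peroxidasin gene, fell. Of the defining haemocyte markers, only Pxn therefore fell, while NimC1, He (0.95), Hml (0.80) and eater (0.78) rose. In the whole list 4 of the measured genes were above the array median at 20 d only.

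Detoxification enzymes rose broadly. Cytochrome P450s oxidise lipids, hormones and foreign compounds, and 39 of 52 measured members rose, 5 fell, and the median was 0.58. Cyp6g1, known from insecticide resistance, had signals of 108, 111, 104, 123 and 112 at 3 d and 614, 603, 624, 603 and 607 at 20 d, a change of 2.30 ± 0.038. Cyp309a1 (2.11), Cyp309a2 (2.04), Cyp9b2 (2.04) and Cyp6g2 (1.94) rose by similar amounts on the log2 scale. Cyp4ae1 (-0.71), Cyp4s3 (-0.25), Cyp18a1 (-0.23), Cyp301a1 (-0.20) and the glial Cyp4g15 (-0.10) fell, the last at 0.005 after quantile normalization.

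Glutathione transferases couple glutathione to reactive compounds, and 14 of 26 rose while 5 fell. GstE9 rose by 1.68 ± 0.044, from 121 ± 5.35 to 424 ± 16.8 (SD, n = 5), and GstT4 (1.31), GstE7 (1.23) and GstD2 (1.14) rose too, whereas GstD3 (-0.31), GstE13 (-0.29), GstE14 (-0.27), GstD11 (-0.23) and GstE2 (-0.14, or 0.0007 after quantile normalization) fell. UDP-glycosyltransferases, which attach sugars to small molecules, rose in 9 of 14 cases and none fell with the deposited values, though 2 were called lower after quantile normalization. Their largest rises were those of Ugt36E1 (0.81) and Ugt36A1 (0.71), both from low signals.

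Most listed lipid genes were higher at 20 d, both for surface lipids and for fatty acid oxidation and lipid droplets. In the list of fatty acid elongases, desaturases and hydrocarbon enzymes 17 of 22 rose, among them wat, a fatty acyl reductase gene (1.36), and CG9458 (1.42), and the desaturase gene CG8630 fell (-1.23). Of the rises, 5 were above the array median at 20 d only. All 19 measured genes of fatty acid oxidation and lipid droplets rose with the deposited values, from 0.14 for Lsd-2 to 1.50 for Had2, with a median of 0.48. After quantile normalization 17 of the 19 were called higher and none lower. Had1, a hydroxyacyl-CoA dehydrogenase gene, had signals of 108, 104, 118, 112 and 109 at 3 d and 311, 322, 303, 293 and 318 at 20 d, a change of 1.37 ± 0.045. Lsd-1, a perilipin that coats lipid droplets, went from 331 ± 11.8 to 647 ± 19.8 (SD, n = 5) and rose by 0.94, CPT2 of mitochondrial fatty acid entry rose by 0.71, and mdy, the fly's DGAT1, by 0.69. Dgat2 of triglyceride synthesis, described above, is not in this list and fell (-1.36).

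Fat body genes rose as well, 12 of 16 measured. fit, a peptide gene of the head fat body that is named for its female bias, had signals of 77.5, 72.8, 80.6, 89.8 and 84.1 at 3 d and 369, 385, 353, 392 and 379 at 20 d, a change of 2.02 ± 0.054. tobi, a glucosidase gene controlled by insulin, rose by 1.83, and the lipid carrier genes Mtp and Apoltp by 0.79 and 0.79. The yolk protein genes Yp1 and Yp3 were dim at both ages, with means of 22.5 to 49.1 and 36.4 to 58.4, and rose by 0.77 and 0.52. The fat body markers moved with this list and make up part of it, and whether fat body in the dissected tissue accounts for the rise was not tested.

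Amino acid enzymes went in both directions, with 8 rises and 7 falls of 20. Sardh (2.05), Ahcy (1.21), Shmt (1.16) and Gnmt (1.03), of one-carbon and methyl metabolism, and Hpd of tyrosine breakdown (1.05) rose. P5CDh1 (-0.41), Gdh (-0.41), Gs1 (-0.34) and slgA (-0.34), of proline and glutamate metabolism, fell.

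Metabolic hormones rose with age. Akh encodes the adipokinetic hormone of the corpora cardiaca, the fly's counterpart of glucagon. It had signals of 517, 485, 459, 487 and 507 at 3 d and 1138, 1074, 1040.2, 1018 and 1081 at 20 d, with no overlap, and a change of 1.10 ± 0.052. The insulin-like peptide genes Ilp2 and Ilp5 of the brain's insulin-producing cells rose by 0.31 ± 0.052 and 0.24 ± 0.035, the insulin receptor gene InR by 0.43 ± 0.11, the binding protein gene ImpL2 by 0.33 and foxo by 0.30. In the whole list 9 of 16 rose and 1, gig of the TSC complex, fell (-0.18). Of 19 ecdysone and nuclear receptor genes 3 rose and 4 fell, with Hnf4, a regulator of lipid use, the largest rise (0.53).

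Glycolysis and sugar storage were mixed, with 5 rises and 7 falls among 16 genes and a median of -0.08, or 0.01 after quantile normalization. The hexokinase gene Hex-C (1.53), Tps1, which makes trehalose (1.34), Pgm1 (0.60) and Treh, which splits trehalose (0.35), rose. Gpdh1 (-0.44) and Pgk (-0.40) fell.

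Nuclear genes of the respiratory chain fell with few exceptions. Complex I takes electrons from NADH, and 25 of its 26 measured genes fell. ND-18 fell most, with signals of 682, 657, 704, 688 and 679.8 at 3 d and 469.6, 484, 431, 443 and 434 at 20 d, a change of -0.58 ± 0.051 (adjusted p = 1.3e-09). The exception was ND-B12, which rose by 0.19 with the deposited values. The list's median was -0.29 as deposited, -0.17 after quantile normalization and -0.38 after median centring, and for 25 of the members all 5 arrays at 20 d lay below all 5 at 3 d.

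The other complexes followed. All 3 measured genes of complex II, which feeds in succinate, and all 7 of complex III fell, with ox (-0.40) and UQCR-Q (-0.39) the largest falls of the latter. In complex IV, which reduces oxygen, 10 of 13 fell. The 2 that rose were COX7AL (1.10) and COX4L (0.41), dim paralogues of main subunits and above the array median at 20 d only, while the main subunit genes COX5B (-0.38) and COX5A (-0.30) fell. All 14 genes of the ATP synthase list fell, with a median of -0.33. The list also holds sesB and porin, which do not encode subunits of the enzyme. ATPsyndelta of the enzyme's stalk had signals of 1096, 987, 972, 1029 and 1083 at 3 d and 831, 763, 768, 735 and 778 at 20 d, a change of -0.41 ± 0.055. After quantile normalization 13 of the 14 were called lower, with a median of -0.18. The main members of these complexes are bright, and the median change of all genes with a signal of 1000 or more was itself -0.17 as deposited and -0.04 after quantile normalization.

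Supply to the chain fell in part. In the citric acid cycle 8 of 14 genes fell, led by Idh3b (-0.43), Idh3a (-0.42) and muc of pyruvate dehydrogenase (-0.41), and 4 rose, among them Pdk, the kinase that switches pyruvate dehydrogenase off (0.45). In mitochondrial import 8 of 10 fell and none rose. Tim8 (-0.44), Tom70 (-0.35) and Tom20 (-0.35) changed most. Tim17b, Tom20 and Tim23 are in the brightest range, with mean signals of 1761, 1258 and 1130 at 3 d, while Tom70 was at 366.

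Mitochondrial ribosomal proteins, which translate the genes of mitochondrial DNA, fell together: 58 of 69 fell and none rose. mRpS9 had signals of 703, 631, 655, 674 and 704 at 3 d and 526, 478, 473, 456 and 506 at 20 d, a change of -0.45 ± 0.052. The median was -0.22 as deposited and -0.21 after quantile normalization, with 58 called lower in both. Their mean signal had a median of 435 over the members, in a range of brightness whose genes had a median change of 0.004.

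In the cytosolic ribosome the count was mixed. Of 32 measured genes 5 fell and 3 rose, and the median of -0.06 turned to 0.07 after quantile normalization, when 16 were called higher and none lower. The largest rises were those of RpS5b (0.96) and RpL37-2 (0.56), dim second copies of ribosomal protein genes whose probes may also take up RNA of the main copy, so that their values are uncertain. RpL15 fell by 0.22. No direction can therefore be given for this family. Translation factors fell in 16 and rose in 7 of 36 cases, with eIF4E6, a cap-binding protein gene, the largest rise (1.39) and eIF3g1 among the falls (-0.32). Of 29 tRNA synthetase genes 12 fell, led by TyrRS (-0.49) and the mitochondrial TrpRS-m (-0.33), and 3 rose, namely GlnRS (0.36), SerRS (0.30) and AlaRS (0.18, or -0.02 after quantile normalization).

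**Figure D4:**
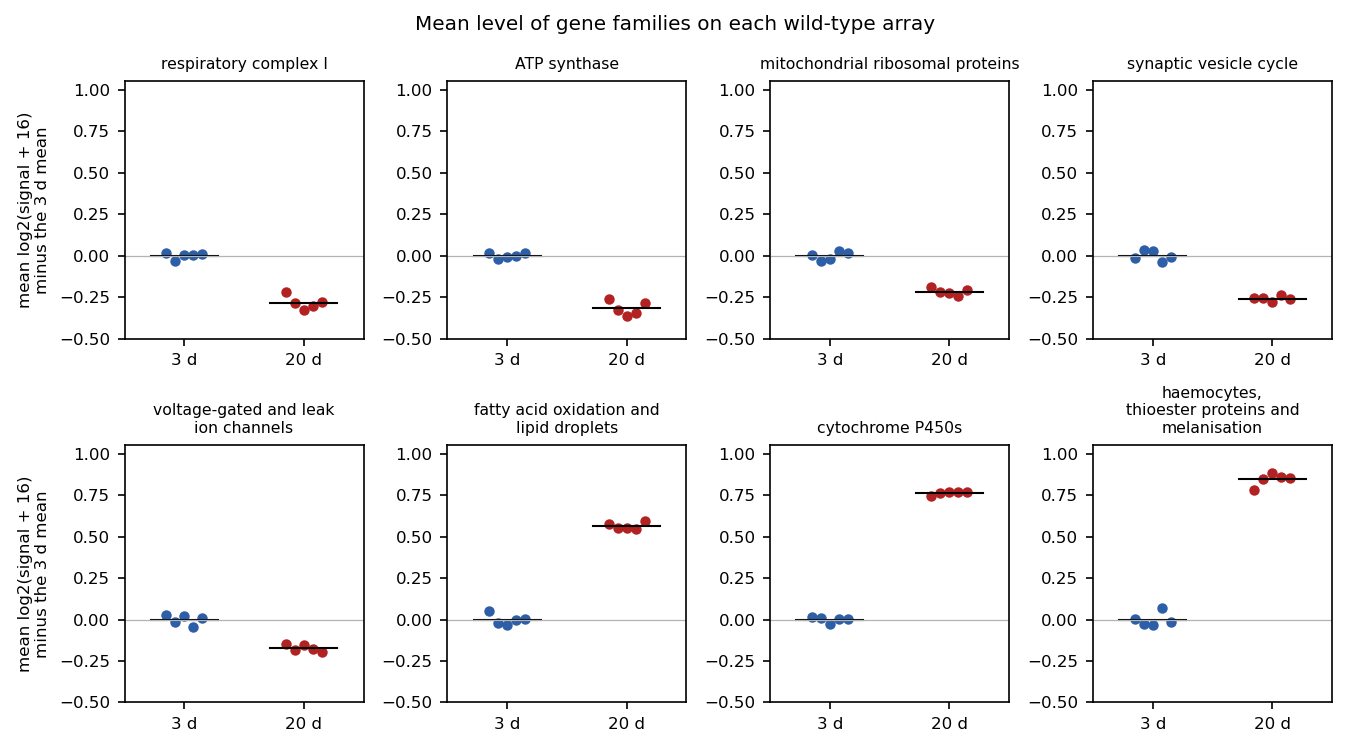
Mean log2(signal + 16) over the measured members of 8 gene families on each wild-type array (points), minus the family's mean at 3 d, with the mean of each age (bars). The 5 arrays at 20 d lie below the 5 at 3 d in the first 5 families and above them in fatty acid oxidation, P450s and haemocyte genes.

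Protein quality control changed little in size. Proteasome subunits, which break down tagged proteins, had 20 of 27 members without a call, with a median of 0.04. As deposited Rpn13 (0.27), Prosalpha3 (0.19), Rpn8 (0.17), Prosalpha6 (0.15), Prosbeta3 (0.13) and Rpn3 (0.11) were called higher, and only Rpn7 lower (-0.15). After median centring the median was -0.05, with 2 called higher and 7 lower. Autophagy and lysosome genes gave 8 rises and 6 falls of 27, with a median of 0.04, or -0.06 after median centring. Mitf, the transcription factor of lysosomal genes, stood out with 0.83 ± 0.04, from 87.2 ± 3.76 to 168 ± 4.72 (SD, n = 5). Of the proton pump that acidifies lysosomes and synaptic vesicles, 14 of 18 subunit genes fell, among them Vha36-1 (-0.38) and Vha14-1 (-0.32), and after quantile normalization 8 were called lower.

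Heat shock proteins and chaperones had 12 rises and 5 falls of 22, with a median of 0.10, or -0.001 after median centring. The inducible Hsp68 rose by 1.02 ± 0.1, from 45.6 ± 5.41 to 109 ± 9.27 (SD, n = 5), and the small heat shock protein gene l(2)efl by 0.56. Subunits of the cytosolic chaperonin rose, with CCT5 at 0.56 and CCT3 at 0.40. The mitochondrial chaperone genes Hsp60A (-0.24) and Hsc70-5 (-0.24) fell. In the endoplasmic reticulum Gp93 (0.44) and CaBP1 (0.29) rose, and 8 of 15 genes had no call.

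Antioxidant genes showed no common direction, with 4 rises and 5 falls of 17. The superoxide dismutase genes Sod2 (-0.30) and Sod3 (-0.28) and the mitochondrial peroxiredoxin gene Prx3 (-0.20) fell, while Irc (0.58), an immune catalase, Sesn (0.43), the sestrin gene, and cnc (0.32), the fly's Nrf2, rose. Among 20 genes of cell death and DNA damage 11 rose, including both subunits of the Ku complex of double-strand break repair, Irbp (0.68) and Ku80 (0.46), lok, the checkpoint kinase Chk2 (0.61), and Gadd45 (0.57). The 4 that fell were skl, a pro-death gene (-0.55), the JNK gene bsk (-0.29), Dcp-1, an effector caspase gene (-0.18), and wgn, a TNF receptor gene (-0.12).

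Genes of the synapse fell together, though by small amounts. Of 33 genes of the synaptic vesicle cycle 25 fell and 2 rose, with a median of -0.31 as deposited and -0.20 after quantile normalization. AP-2mu, an adaptor of vesicle recovery by endocytosis, had signals of 598, 593, 544, 586 and 582 at 3 d and 322, 327, 340.3, 357 and 347 at 20 d, a change of -0.75 ± 0.057. Rop of vesicle fusion (-0.50), shi, the dynamin that pinches vesicles off (-0.47), and Syt7 (-0.46) fell as well. The 2 that rose were the active zone gene Liprin-alpha (0.30) and Eps-15 of endocytosis (0.20). Pan-neuronal genes fell in 11 of 16 cases. The change of the marker elav was -0.04 ± 0.09 (adjusted p = 0.71) and that of nSyb -0.12 ± 0.14 (adjusted p = 0.47), neither called, and elav stood at 0.07 after quantile normalization, with the neuronal markers summing to between 1828 and 2167 at 3 d and between 1702 and 2032 at 20 d.

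Acetylcholine is the main excitatory transmitter of the fly brain. Of 14 cholinergic genes 10 fell, including ChAT, which makes it (-0.39), VAChT, which loads it into vesicles (-0.36), and the receptor subunit gene nAChRbeta1 (-0.34). These named genes are bright, with mean signals of 1048, 1777 and 1881 at 3 d. Of all genes with a signal of 1000 or more, 64.2% were called lower, and of those from 500 to 1000, 44.0%. nAChRbeta3, described above, was the 1 that rose (2.56), and the largest fall of the list was that of ChAT.

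GABA and glutamate genes fell in 12 of 19 cases. Gat, the GABA transporter of glia, had signals of 644, 654, 693, 615 and 611 at 3 d and 362, 359.9, 301, 324 and 372 at 20 d, a change of -0.88 ± 0.056. VGAT, which loads GABA into vesicles, changed by -0.57 ± 0.051, and Gad1, which makes GABA, by -0.40 ± 0.047. GluRIIA, a glutamate receptor gene best known from the neuromuscular junction, was the 1 that rose (0.55).

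Monoamine genes fell in 16 of 25 cases and 2 rose. Of those that fell, Ddc and Vmat are in the brightest range, with mean signals of 1379 and 1331 at 3 d, while SerT was at 129. ple, the tyrosine hydroxylase of dopamine synthesis, had signals of 466, 571, 522, 315 and 542 at 3 d and 361, 333, 245, 368 and 210.0 at 20 d, a change of -0.65 ± 0.19 (adjusted p = 0.0077). Its spread within an age was wider than that of most genes named here. Pu, whose product makes the cofactor of that enzyme, changed by -0.58 ± 0.06, the serotonin transporter gene SerT by -0.56 ± 0.063, the dopamine transporter gene DAT by -0.38 ± 0.065, and speck, which acetylates monoamines, by -0.52 ± 0.039. The 2 that rose were Tdc1 (0.93), of tyramine synthesis outside the nervous system, and t (0.29), which splits conjugated dopamine and histamine.

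Peptide transmitters had more rises than falls: 15 of 33 genes rose and 7 fell, with a median of 0.08, or -0.02 after median centring. Besides Akh, Ptth (0.73), CCHa2 (0.50), Eh (0.44) and Crz, the corazonin gene (0.41), rose. Crz had signals of 1231, 1173, 1250.3, 1117 and 1254 at 3 d and 1715, 1565, 1615, 1514 and 1598 at 20 d. Besides Nplp3, SIFa (-0.78), of a few neurons that span the brain, and Proc (-0.67), the proctolin gene, fell. SIFa went from 327 ± 14.0 to 184 ± 10.9 (SD, n = 5).

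Ion channels of excitability fell in 24 of 37 cases, with a median of -0.22. para, the voltage-gated sodium channel, changed by -0.51 ± 0.1, and its auxiliary subunit gene tipE by -0.42 ± 0.039. The potassium channel gene Sh and its subunit gene Hk changed by -0.36 and -0.38. Irk1, an inward rectifier (0.50), Teh4 (0.20) and Irk3 (0.14) rose. The dpr, DIP, beat and side families, surface proteins that match synaptic partners, had 30 falls and no rise among 48, with a median of -0.19 as deposited and -0.31 after quantile normalization. DIP-zeta (-0.64), side-VIII (-0.48), beat-Ia (-0.45) and dpr10 (-0.45) changed most. Axon guidance and adhesion genes fell in 16 and rose in 3 of 40 cases, the latter being Dscam4 (0.29), Dscam3 (0.24) and Ephrin (0.23).

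Genes that respond to neuronal activity went in both directions. Hr38, a nuclear receptor gene induced by firing, had signals of 254, 299, 272, 303 and 260.3 at 3 d and 141, 130.3, 119, 144 and 118 at 20 d, a change of -1.0046 ± 0.098, and sr, of the same early response, changed by -0.37 ± 0.064. Arc2, of the family of capsid-forming Arc genes, had signals of 107, 101, 111, 117 and 109 at 3 d and 296, 302, 321, 290.0 and 319 at 20 d, a change of 1.36 ± 0.047, and Arc1 rose by 0.59 ± 0.052. None of the 4 genes overlapped between the ages.

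In the circadian clock, per and tim form the repressor that Clk and its partner switch on. The repressor genes per and tim changed by -0.30 ± 0.064 and -0.28 ± 0.047, and vri by -0.19 ± 0.04. Clk (0.37 ± 0.055), the light sensor gene cry (0.42 ± 0.045) and Pdf, the output peptide of clock neurons (0.40 ± 0.035), rose. The labels give no hour of dissection, so a difference in time of day cannot be told apart from age for these genes.

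Photoreceptor genes split evenly, with 10 rises and 9 falls of 25. inaD, the scaffold of the light response (0.54), ninaG (0.52) and the channel gene trpl (0.42) rose. Cds (-0.30), rdgB (-0.30) and rdgC (-0.25), of lipid recycling and rhodopsin shut-off, fell. Eye pigment genes fell in 7 of 15 cases by at most 0.29 (Rab32), and ry (0.42) and pr (0.09) rose.

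Glial genes had 9 rises and 11 falls of 28, with a median of -0.03, or 0.01 after quantile normalization. Besides Gat, the lipid phosphatase gene wun2 (-0.64), Mdr65, an exporter of the blood-brain barrier (-0.44), and nrv2 (-0.41) fell. Of genes of septate junctions, which seal the barrier, Gli (0.46), Lac (0.33) and Cont (0.29) rose, Nrx-IV fell (-0.28), and sinu was not called (0.06, or -0.04 after median centring). Indy, a citrate transporter gene, rose (0.32). Of the glial markers, the change of repo, a transcription factor of glia, was -0.02 ± 0.049 (adjusted p = 0.7, at 0.07 after quantile normalization and -0.12 and called lower after median centring) and that of moody -0.06 ± 0.11 (adjusted p = 0.66), neither called as deposited, while nrv2 went from 1939.9 ± 95.9 to 1468 ± 186 (SD, n = 5). The summed glial markers ranged from 3167 to 3355 at 3 d and from 2451 to 2959 at 20 d, with no overlap, a fall that lies mostly in nrv2.

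Lens and cuticle genes were few on these arrays, 15 measured of 134 listed, and split into 6 rises and 8 falls. Of the lens proteins, Cpr72Ec rose while retinin fell. Cpr72Ec had signals of 144, 134, 139, 156 and 132 at 3 d and 632, 585, 569, 556 and 567 at 20 d, a change of 1.93 ± 0.062. Cpr67B rose by 1.44, and Vajk2 fell to background (-1.08). Chitin enzymes, binding proteins and mucins rose in 15 of 19 cases with a median of 0.78. Cht8 had signals of 31.6, 27.3, 31.6, 35.2 and 27.9 at 3 d and 240.0, 239, 231, 220.3 and 225 at 20 d, a change of 2.40 ± 0.058, and the growth factors of the chitinase family Idgf1 and Idgf5 rose by 1.86 and 1.79. Cda5 (-1.11) and Cht6 (-0.52) fell.

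Odorant-binding proteins carry odours in antennal lymph and also occur in other tissues. Of 23 measured, 12 rose and 5 fell. Obp83b fell from signals of 109, 99.9, 107, 102 and 97.6 at 3 d and 13.5, 16.6, 16.2, 16.5 and 14.5 at 20 d, Obp28a by 0.85 and Obp19a by 0.78, and 3 members were above the array median at 3 d only. Obp8a (1.13), Obp56a (1.11), Obp57c (1.07) and Obp99b (1.04) rose. Among chemoreceptors and related genes the pheromone-response genes CheA75a (1.60) and CheA87a (1.56) rose from background, and lush, an antennal binding protein gene, fell (-0.75). The antennal marker Orco was below the filter, and the part of antennal tissue in these falls was not tested.

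Muscle genes also split. Act88F, the actin of the indirect flight muscle, had signals of 69.4, 71.5, 84.9, 74.1 and 73.6 at 3 d and 17.0, 13.1, 16.3, 17.8 and 12.5 at 20 d, a change of -1.53 ± 0.06. TpnC4 (-1.16) and TpnC41C (-0.80), troponin C genes of thoracic muscles, fell with it to background. Of the 4 muscle genes above the array median at 3 d only, the remaining gene, Scgdelta, was not called (-0.09). TpnC73F, the troponin C of other muscles, rose by 1.49 ± 0.053, from 83.6 ± 4.76 to 263 ± 9.03 (SD, n = 5), and up, the troponin T gene, by 0.85, so that 14 of 24 rose and 4 fell, the fourth being Sln (-0.28). The 4 measured muscle markers summed to between 201.9 and 227.7 at 3 d and between 176.9 and 188.6 at 20 d.

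Genes of the nucleus changed by small amounts. Splicing genes had 15 rises and 6 falls of 34, with a median of 0.09, or -0.01 after median centring, Sf3a1 being the largest rise (0.46). Polycomb and trithorax genes had 14 of 19 members without a call, with Psc (-0.36) and Pc (-0.26) lower and ash2 (0.30) and E(z) (0.19) higher. Among chromatin genes the deacetylase genes HDAC1 (0.42) and HDAC6 (0.37) rose. In the small RNA pathways 5 rose and 2 fell of 17, and loqs, a partner of Dicer, fell (-0.26). The piRNA gene armi was called higher (0.18) and was -0.03 after quantile normalization. Of 13 neurogenesis genes 2 rose, insc (1.03) and brat (0.33), and 4 fell. Of 16 cytoskeleton genes betaTub60D rose most (1.00), while betaTub56D (-0.26) and the microtubule protein gene futsch (-0.23) fell.

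The null flies aged over the same interval with arrays of their own, so the change with age can be compared between the genotypes by an interaction (change in null minus change in wild type). It was called for 1381 of 7704 genes (17.9%), and for 1093 of the 4504 genes called in wild type (24.3%). Each genotype is a line of its own, and what else separates the lines cannot be told apart from the loss of miR-34. Among the 30 genes with the largest wild-type changes it was called for 27, all but CG4000, Act88F and CG16820. These 30 were chosen by the wild-type change that enters the interaction, so their count is a description and not a test.

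Several of the largest wild-type changes had no like change in null flies. Cyp4g1 changed by 0.82 in null. CG15531, CG7910, CG16904, Sgp, Obp83b and Dgat2 were above the array median on no null array of either age, so their values in null are at background and give no direction there. Cht4 (-1.13), CG5506 (-2.59), CG11672 (-2.15) and Cda9 (-0.65) fell in null, to background at 20 d, while they rose in wild type, and Cda9 was above the array median on only 2 of the 5 null arrays at 3 d. In other genes both genotypes moved alike in direction: Lst changed by 2.19 in null, Mtk by 1.73, nAChRbeta3 by 1.76, Nplp3 by -2.45 and CG7203 by -2.57. Obp83b had a mean signal of 103 in wild type at 3 d and of 3.41 in null at that age.

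Families can be set side by side, with no test of their difference. Mitochondrial ribosomal proteins had a median of -0.22 in wild type and -0.18 in null (47 of 69 lower), complex I -0.29 and -0.29, and the synaptic vesicle cycle -0.31 and -0.28. The bomanin list had 1.10 and 1.08, and P450s 0.58 and 0.49. Larger gaps appeared for fatty acid elongation and hydrocarbons, at 0.65 and 0.10, for chitin and mucin genes, at 0.78 and -0.07, for muscle genes, at 0.30 and -0.16, and for digestive enzymes, at 0.12 and -2.32. Most digestive enzymes lay below the array median in wild type, so their wild-type median is near background and gives no direction. Jon25Biii and Jon99Fi, with wild-type means of 4.07 and 1.06 at 3 d and 7.04 and 3.99 at 20 d, passed the filter through null arrays only.

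**Figure D5:**
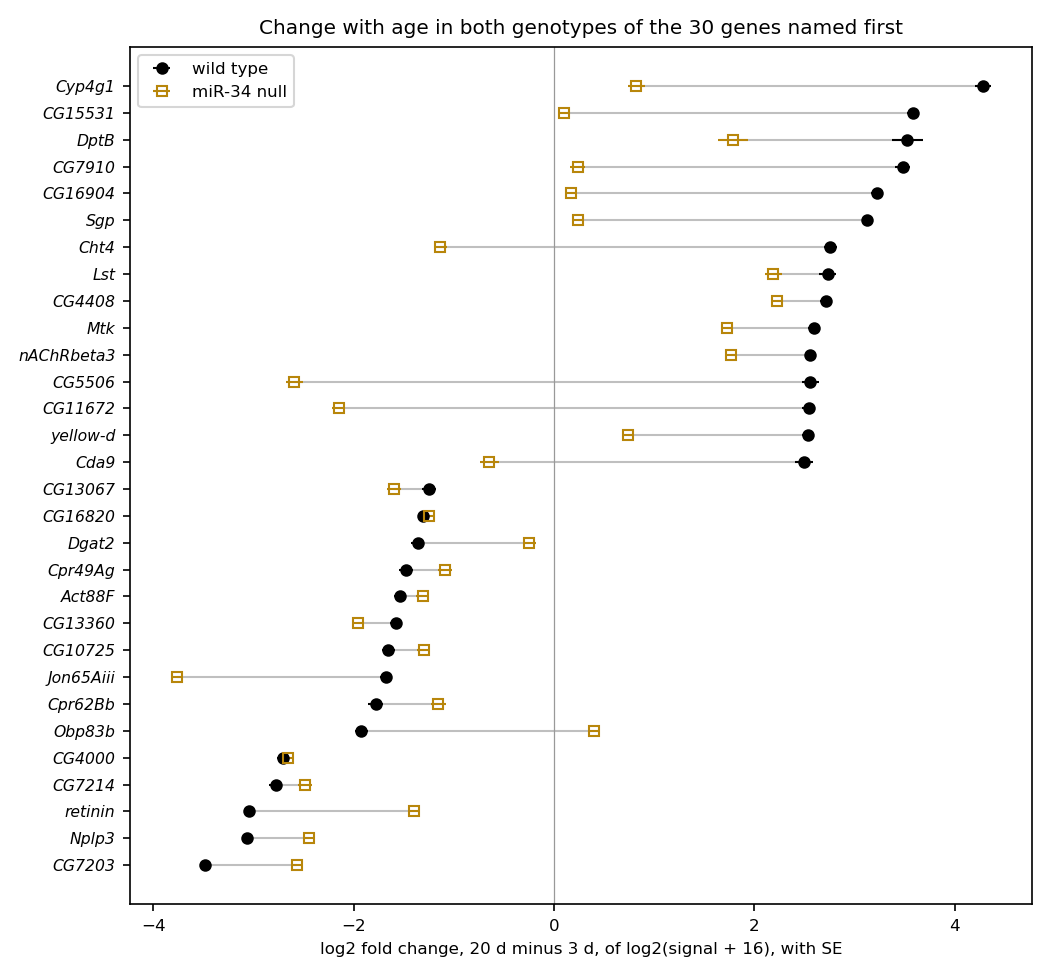
Change with age (20 d minus 3 d, log2, with SE bars) of the 15 genes with the largest rises and the 15 with the largest falls in wild type (filled circles) and the same genes in miR-34 null brains (open squares), 5 arrays per age and genotype. The null values of CG15531, CG7910, CG16904, Sgp, Obp83b and Dgat2 are at background at both ages. The gap is widest for CG5506 and CG11672, with 2.56 and 2.54 in wild type and -2.59 and -2.15 in null.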

How the data were processed

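Brains of 5 wild-type samples at 3 d and 5 at 20 d were compared, and 10 arrays of miR-34 null brains entered the same fit. The deposited intensity values, 1 per probe set and array, are MAS5 output per the labels, with the same trimmed mean (150.002, 2% trimmed at each end) on every array. The submitters' processing notes name MAS5 and GCRMA. The sources used here do not give the scanner or its settings. The array's 18952 probe sets include 183 controls, which were left out. Of the rest 13647 carried 1 gene symbol, 402 several and 4720 none. Only the first kind was named, and 13544 matched a RefSeq table of Release 6 plus ISO1 MT.

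Signals were used as log2(signal + 16), without further normalization. Probe sets above the array median on at least 5 of 20 arrays were kept (9806, 7704 genes, the brightest probe set per gene). limma 3.58.1 in R 4.3.3 fitted 4 group means with trend and robust settings, with Benjamini-Hochberg adjustment within each contrast. The fit was checked on simulated data. Of 514 genes with several tested probe sets, 33 had calls in opposite directions.

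The comparison and the 61 gene lists were chosen with earlier results of these data known, and 16 members listed in error were removed after their values were seen. The named genes are the 15 highest and 15 lowest called changes without overlap and the 5 largest called changes in each list, of which some are left out here. Other named genes were chosen after their values were seen. The number of arrays limits the precision. The 3' over 5' log2 ratios of control transcripts, which track RNA integrity, differed between the ages by -0.08 for actin, 0.02 for eIF-4a and 0.08 for GAPDH.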

Additional observations from a re-analysis of the deposited data

Results flagged for a closer look

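In 184 sets of 5 wild-type arrays (the 30 genes with the largest changes and the mean levels of the gene families, at each age), 11 held an array that stood apart from the other 4, by a gap above 0.71 of the set's range, where chance gives about 1 in 20. At 3 d these were DptB (gap 0.818 of the range, replicate 2, which was high), Mtk (0.802, replicate 4, high), CG11672 (0.747, replicate 3) and Nplp3 (0.851, replicate 2, low). Among family means at 3 d they were the P450s (0.793, replicate 3), complex I (0.758, replicate 2), complex IV (0.762, replicate 1), phototransduction (0.727, replicate 2) and lens and cuticle proteins (0.721, replicate 4). At 20 d they were the P450s (0.745, replicate 1) and the dpr, DIP, beat and side families (0.742, replicate 5). The arrays concerned were not the same in all sets, and replicate 2 of 3 d was named most often. The 30 genes were chosen among genes whose ages do not overlap. That their ages stayed apart was therefore fixed by the choice and says nothing about these arrays.

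The change with age differed between the genotypes for 27 of the 30 genes with the largest wild-type changes, by the interaction (change in null minus change in wild type) at an adjusted p under 0.05 in limma, over 7704 genes of which 17.9% were called. Among the genes that rose in wild type the interaction was -5.15 for CG5506, -4.69 for CG11672, -3.89 for Cht4, -3.48 for CG15531, -3.46 for Cyp4g1, -3.24 for CG7910, -3.14 for Cda9, -3.06 for CG16904 and -2.88 for Sgp. It was smaller for yellow-d (-1.80), DptB (-1.74), Mtk (-0.869), nAChRbeta3 (-0.795), Lst (-0.542) and CG4408 (-0.491). Among the genes that fell it was 2.32 for Obp83b, 1.65 for retinin, 1.11 for Dgat2, 0.912 for CG7203, 0.624 for Cpr62Bb, 0.616 for Nplp3, 0.39 for Cpr49Ag, 0.352 for CG10725 and 0.293 for CG7214, where a value above 0 means a smaller fall in null for the genes measured there. CG15531, CG7910, CG16904, Sgp, Obp83b and Dgat2 were above the array median on no null array of either age, so for these 6 the value gives no direction in null. CG7214, CG10725 and Cpr49Ag were at background on the null arrays at 20 d, which limits the fall that could be measured there. It was below 0, a larger fall in null, for Jon65Aiii (-2.08), CG13360 (-0.379) and CG13067 (-0.353). Jon65Aiii had a mean of 86.0 in wild type and 619 in null at 3 d. At 20 d it was at background in wild type (15.8), which limits the fall that could be measured there. DptB and Mtk also started higher in null. DptB had means of 18.2 in wild type and 103 in null at 3 d, and of 378 and 390 at 20 d. Mtk had means of 35.5 and 107 at 3 d, and of 294 and 390 at 20 d. Their smaller rise in null thus did not end at a lower mean.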

How the results depend on the processing

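Of 5449 probe sets called in wild-type ageing, between 5158 and 5297 were called when any 1 wild-type array was left out, 5763 with the wild-type arrays alone and 6175 with no filter. Deviations of same-numbered wild-type arrays of the ages correlated at -0.143 to 0.195, and those of differently numbered arrays at -0.252 to 0.356. These values do not settle whether a number marks a shared batch, which the labels do not say. With the replicate block 5629 were called. After median centring 3878 were called lower, against 2436. The count changed at least 2-fold, 371, was 576 with a pseudocount of 1 and 164 with 64, since the added value shrinks the change of dim probe sets. Of 7973 values of named genes under the alternatives, 7841 kept direction and call, 122 lost the call, 1 gained it (repo, -0.12 after median centring) and 9 turned sign: armi (-0.029), AlaRS (-0.023), Cyp4g15 (0.0054), GstE2 (0.00071), elav (0.074) and repo (0.069) after quantile normalization, sinu (-0.036) after median centring, repo (from -0.057 to 0.0067 with 1 array left out, above 0 without replicate 3 of 20 d), and cact (0.13) as the mean of its probe sets. Of 2562 list counts 127 moved by over 1.5 times, 65 of them under the 2 scalings. For bright families (the respiratory chain, ATP synthase, the proton pump and cytosolic ribosomal proteins) the size of a change, and for the last its sign, depends on the scaling. Dim probe sets limit what can be said of fold changes from background.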

Other observations

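Genes on chromosome 4, the small and mostly heterochromatic chromosome of the fly, had a larger share of members called lower than those of the other arms, a difference that was not tested. Of 62 such genes 51.6% were called lower and 22.6% higher, with a median change of -0.11. On the X and the arms of chromosomes 2 and 3 the share called lower lay between 25.1% (2L) and 26.7% (2R), and the medians between 0.001 (X) and 0.03. The 62 genes were not chosen beforehand, and neighbouring genes are not independent.

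Genes of other tissues were mostly few on these arrays. Of 87 names for accessory gland, testis and ovary 9 were measured, and Ance-3 was the 1 that rose (1.47). Of 45 digestive enzymes 16 were measured, 7 rose and 4 fell, with Mal-A1 (0.93) and Ser7 (0.80) the largest rises, and most lay below the array median in wild type. Of 13 genes of DNA replication and the cell cycle 6 rose, with Orc5 at 0.44, and 2 fell, with CycE at -0.27, while the median of 0.11 was -0.09 after quantile normalization.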
